A study of Mus musculus with 8 samples.

Results

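The p53 pathway was followed through 33 genes in mouse skin, which were *Trp53*, its relatives *Trp63* and *Trp73*, and 30 regulators and target genes. They were chosen as textbook members of the pathway, matched to the array through the RefSeq accession of each probe, and represented by the brightest tested probe of each gene. All 33 were found among the 21150 genes named on the array, and all 33 passed the filter on dim probes. The RNA came from whole skin of female mice of the FVB/N strain and was measured on 1-colour Agilent mouse arrays. The CD109+/+ mice carried the intact gene and the CD109-/- mice lacked CD109, a glycosylphosphatidylinositol-anchored protein of the cell surface. The treated mice received 7,12-dimethylbenz(a)anthracene (DMBA), a carcinogen that skin converts to metabolites that bind DNA, and RNA was taken 24 h later. The other mice are called untreated in the study and acetone, the solvent of DMBA, in the labels. Each of the 4 groups had 2 arrays. The labels give neither the dose of DMBA nor the age of these mice, and nothing says whether an array held 1 animal or several. The p-values therefore measure the spread between these samples, which may in part be technical.

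The 8 arrays lay on 1 slide, and the rows of the slide split them by treatment, so an effect of DMBA and one of the row cannot be told apart. In each row the labelled genotypes lay in different columns, so after DMBA an effect of genotype and one of the column cannot be told apart either. Between 63.6% and 67.0% of the spots were well above background on each array, and 5 of 5 markers of the basal epidermis were well above background on every array. Values are given as log2 signals, which are log2 intensities relative to the 75th percentile of the same array, and differences between groups as log2 fold changes. The targeted gene, *Cd109*, checks the genotype labels. After DMBA its log2 signal was 0.84 and 1.42 with the label CD109+/+, while with the label CD109-/- it was −8.06 and −7.70, not well above background. Without DMBA, replicates 1 and 2 labelled CD109+/+ had 2.06 and −6.49, and replicates 1 and 2 labelled CD109-/- had 1.66 and −8.11. The array labelled untreated CD109+/+ replicate 2 and the array labelled untreated CD109-/- replicate 1 therefore went against their labels. Each comparison is described first as labelled and then with these 2 arrays exchanged. Since the exchange was read from the arrays that were then tested, a p-value under it is a description of this division and cannot count as separate evidence on the genotype. The average of the DMBA effect over the genotypes has the same estimate under both arrangements, and only its error changes.

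p53 is a transcription factor that accumulates when DNA is damaged. It binds paired copies of a short palindromic motif near its target genes, and these genes hold the cell cycle, repair DNA or start apoptosis. Among the targets are its own inhibitors, above all the ubiquitin ligase Mdm2, so that the response limits itself. In the epidermis p53 is known for the response to ultraviolet light and to chemical carcinogens, while its relative p63 is the master regulator of the stratified epithelium.

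The start regions of the members were read for this motif, the p53 consensus decamer, since the results below turn on known p53 targets. RefSeq promoter windows on GRCm38.p6, which run from 250 bases before to 50 bases after a start, were at hand for 26 of the 33 members. *Pmaip1*, *Perp*, *Trp63*, *Zmat3*, *Tnfrsf10b*, *Rrm2b* and *Trp53inp1* had no entry. The decamer reads the same on both strands. An exact copy lay in a window of 11 of the 26 members (42.3%) and of 9.55% of all 27025 genes with a window. A pair of decamers with a spacer of at most 13 bases and at most 2 mismatches in all, which can overlap the single copies, was found for 7 of 26 (26.9%) against 4.71% of all genes. The 26 members had 36 windows and the 27025 genes 32851, and a copy in any window counted. Since the members were chosen as genes of the p53 pathway, these shares describe them and are no separate evidence. The sequence around the copies is printed, 5′ to 3′ along the gene, for 5 of the members whose values are given by array below. Capitals mark the pair with the fewest mismatches, or the single copy where there is no pair, and for *Cdkn1a* both of its pairs. The exact copy of *Aen*, which lies after the upstream of its 2 starts, is not shown.
*Cdkn1a*, chr17:29090886-29090967, + strand, from −93 to −12 of the upstream of 2 starts: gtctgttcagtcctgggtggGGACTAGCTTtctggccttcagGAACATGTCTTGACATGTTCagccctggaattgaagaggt
*Bax*, chr7:45467070-45467134, − strand, from −236 to −172: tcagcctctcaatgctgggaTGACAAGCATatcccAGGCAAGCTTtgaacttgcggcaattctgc
*Mdm2*, chr10:117710915-117710964, − strand, from −206 to −157: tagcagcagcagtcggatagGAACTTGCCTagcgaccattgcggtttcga
*Ccng1*, chr11:40755442-40755501, − strand, from −215 to −156: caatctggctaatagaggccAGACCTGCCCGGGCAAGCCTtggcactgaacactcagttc
*Gtse1*, chr15:85859945-85859964, + strand, across the downstream of 2 starts: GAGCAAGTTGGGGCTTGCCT
The *Cdkn1a* window held exact copies at −73 and −51 and, directly after these, a decamer with 1 mismatch. The marked pairs of *Ccng1* and *Gtse1* had 1 mismatch each and that of *Bax* 2 mismatches, and *Mdm2* had a single exact copy. Further pairs that share a decamer with the marked one are left in lower case or not shown, which are 1 of *Bax* and 1 of *Ccng1* with 2 mismatches and 2 of *Gtse1*, with 1 and 2 mismatches, that run past the printed bases. The window of the downstream *Cdkn1a* start, chr17:29093519-29093818, held none.

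The question of the first comparison was how skin responds to DMBA. Over both genotypes, 7 of the 33 members had a higher signal on all 4 DMBA arrays than on any of the 4 untreated arrays, and 0 had a lower one. They were the death genes *Tnfrsf10b*, *Pmaip1*, *Bax*, *Zmat3* and *Aen*, the inhibitor *Mdm2*, and the cell cycle gene *Gtse1*. Over all 36918 probes tested, 3.78% lay entirely above and 2.38% entirely below, so 21.2% of the members stood above where 3.78% of all probes did. The genotype labels have no part in this count. Here and below, each member counts by its brightest tested probe, while the share of all probes includes every tested probe, so the units differ. With the labels as deposited, 0 of the 33 members passed the test averaged over the genotypes, where 0.0298% of all probes did (before adjustment, 9 members were under 0.05 by limma and 8 by the 2-way analysis of variance of the methods, which left 0 after adjustment). For the counts before adjustment, here and below, the share of all probes under the same threshold is not given. They are therefore not read as a result about the members. The median log2 fold change of the members was 0.28 against 0.04 for all probes, and 25 of the 33 were positive.

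*Tnfrsf10b*, which encodes the mouse receptor for the death ligand TRAIL, gave a log2 signal of 0.31 and 0.62 after DMBA in CD109+/+ skin and of 0.22 and 0.42 after DMBA in CD109-/- skin. Untreated arrays gave −0.69 and −0.40 with the label CD109+/+ and −0.71 and −0.29 with the label CD109-/-. The groups did not overlap, and the averaged log2 fold change was 0.91 (SE 0.16, adjusted p = 0.178), a 1.89-fold difference. *Pmaip1* encodes Noxa, a BH3-only protein that neutralizes Mcl1. Its log2 signals were 0.96, 1.30, 1.03 and 0.94 after DMBA, given in the order CD109+/+ replicates 1 and 2 and CD109-/- replicates 1 and 2, and 0.35, 0.20, 0.39 and 0.19 without it. All 4 DMBA arrays stood well above the untreated ones, by 0.77 on average (SE 0.13, adjusted p = 0.171).

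*Bax*, the pore-forming protein of the mitochondrial outer membrane, was at 3.24, 3.27, 3.26 and 3.11 after DMBA and at 2.55, 2.78, 2.49 and 2.92 in untreated skin, in the same order. The treated arrays lay close together and the untreated ones were more spread, and the difference was 0.53 on the log2 scale (SE 0.14, adjusted p = 0.295). *Zmat3* (Wig1), an RNA-binding zinc finger protein, was at 0.96, 1.25, 1.05 and 0.90 after DMBA and at 0.72, 0.66, 0.49 and 0.64 without it. Its change was similar with either label, at 0.41 in CD109+/+ and 0.41 in CD109-/- skin (SE 0.18 each, adjusted p = 0.455 and 0.359). *Aen*, a nuclease that degrades DNA in apoptosis, was at 4.62, 4.62, 4.66 and 5.10 after DMBA against 4.38, 4.59, 4.11 and 4.35 so that the nearest arrays of the treatments almost met. Both of its probes gave a log2 fold change of 0.39, but on the other probe the treatments overlapped, at 4.39, 4.38, 4.51 and 4.96 after DMBA and up to 4.47 without it.

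*Mdm2* was the member of the feedback loop whose arrays separated. Its log2 signal was 3.33, 3.43, 3.46 and 3.68 after DMBA against 3.21, 3.19, 3.09 and 3.24 in untreated skin. The difference was small, at 0.30 (SE 0.12, adjusted p = 0.418) or 1.23-fold. For *Ppm1d* (Wip1), the phosphatase that switches p53 off, the averaged difference was −0.23 (SE 0.12), and its arrays overlapped.

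*Cdkn1a*, which encodes the cyclin-dependent kinase inhibitor p21 and is the classical p53 target, gave different answers from its 2 probes, which match different RefSeq transcript records. The brighter probe was at 2.56, 3.02, 2.87 and 3.15 after DMBA and at 2.40, 3.15, 2.13 and 2.82 without it, so the treatments overlapped and the log2 fold change was 0.28 (SE 0.26, adjusted p = 0.736). The dimmer probe was at −2.53, −2.02, −2.46 and −3.66 after DMBA and at −4.41, −5.19, −3.91 and −4.90 without it. It was well above background on all 8 arrays, its treatments did not overlap, and its log2 fold change was 1.93 (SE 0.39, adjusted p = 0.214), a 3.82-fold difference. With the 2 arrays exchanged, this probe passed in the averaged comparison (adjusted p = 0.0495) and the brighter one did not (adjusted p = 0.377). The promoter table does not say which of the 2 starts either record uses.

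**Figure D1:**
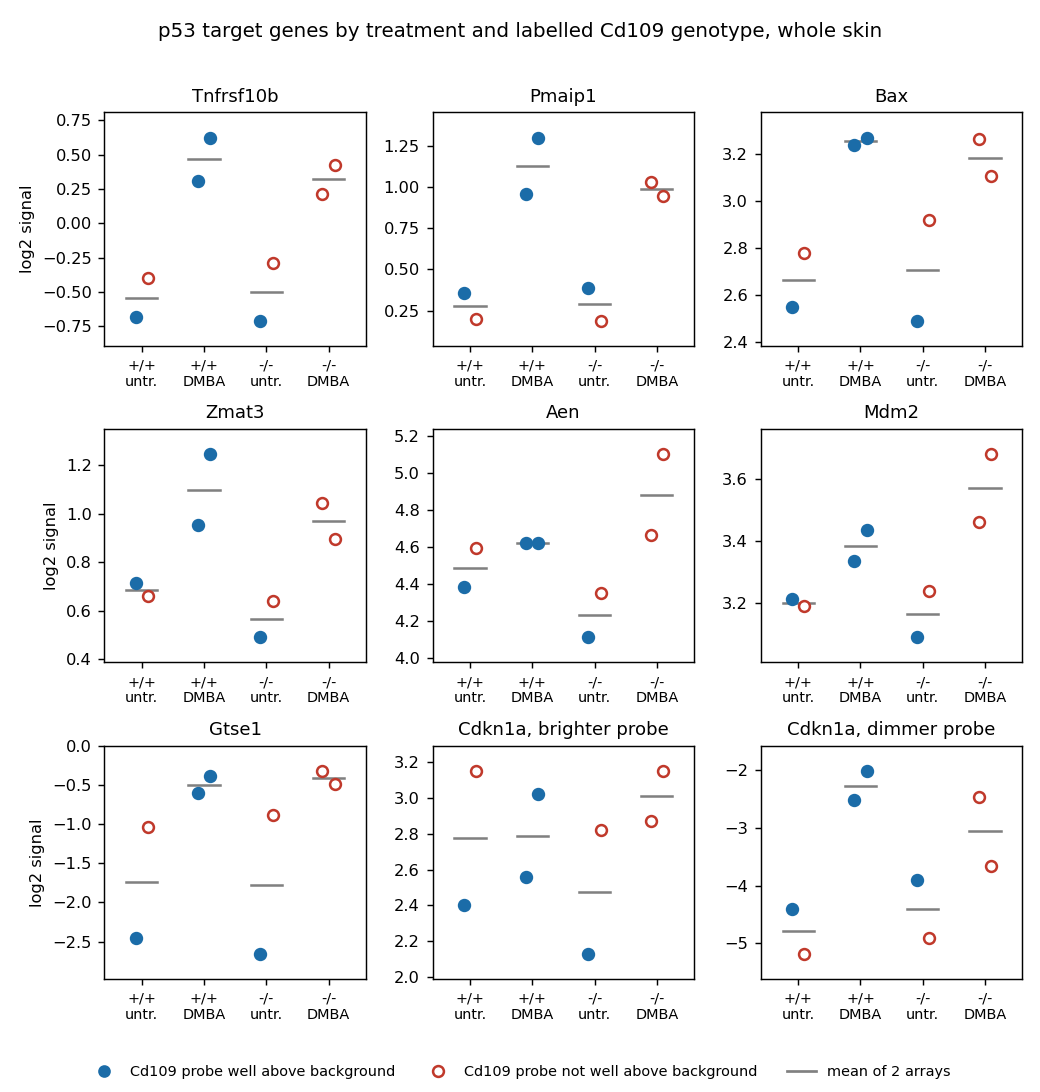
Log2 signal (relative to the 75th percentile of each array) of 7 members and of both *Cdkn1a* probes, by labelled genotype and treatment, with 1 point per array, bars at the mean of 2 arrays, and filled points where the *Cd109* probe was well above background. In every panel but that of the brighter *Cdkn1a* probe, the 4 DMBA arrays lie above the 4 untreated arrays, and in each untreated group 1 point is filled and 1 is open.

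*Gtse1* is a protein of the G2 and S phases that shuttles p53 out of the nucleus. By the brightest tested probe of each member, *Gtse1* had the highest averaged log2 fold change of the 33, at 1.31 (SE 0.48, adjusted p = 0.394). It was at −0.60, −0.38, −0.32 and −0.48 after DMBA and at −2.45, −1.03, −2.66 and −0.88 without it, so the 4 treated arrays agreed closely while the untreated arrays fell in a lower and a higher pair. *Psrc1*, a microtubule-binding protein of the spindle, had the same pair in untreated skin, at −1.46 and −1.41 against 0.25 and 0.38, and was at −0.04, 0.32, 0.78 and 0.85 after DMBA. Its treatments overlapped, and its log2 fold change was 1.04 (SE 0.53, adjusted p = 0.528). *Plk2*, a polo-like kinase of the centrosome, was lower on the same untreated arrays, at −0.53 and −0.57 against 0.33 and 0.22. *Sesn2*, a stress-induced inhibitor of mTORC1, was at 1.34, 1.48, 1.65 and 2.06 after DMBA and at 1.08, 1.47, 1.05 and 1.20 without it, with an overlap of 1 array and a difference of 0.43 (SE 0.16, adjusted p = 0.397).

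The other members gave no such separation. *Mdm4* had an averaged log2 fold change of 0.68 (SE 0.25, adjusted p = 0.4), of which 1.78 lay in CD109-/- and −0.43 in CD109+/+ skin as labelled. In the averaged comparison, 8 of the 33 had a negative log2 fold change, which ranged from −0.02 for *Phlda3*, a repressor of Akt, to −0.40 for *Trp63*. *Trp63* was at 2.76, 3.20, 2.70 and 3.94 after DMBA and at 3.49, 3.70, 3.39 and 3.63 without it, with overlap (SE 0.30, adjusted p = 0.658), and its second probe gave −0.04 (SE 0.25). *Trp53* itself overlapped as well (log2 fold change 0.14, SE 0.18, adjusted p = 0.809). *Perp*, a desmosomal protein that p63 also controls, was at 7.49 to 7.69 after DMBA and at 7.58 to 7.83 without it. *Sfn*, the 14-3-3 protein sigma of keratinocytes that holds cells in G2, gave 0.27 (SE 0.37), *Ei24*, a protein of the endoplasmic reticulum, 0.13 (SE 0.15), and *Trp53inp1*, which promotes p53 phosphorylation, 0.00 (SE 0.15). *Rrm2b*, the p53-induced subunit of ribonucleotide reductase, gave −0.35 (SE 0.21) and *Ddit4* (Redd1), an inhibitor of mTORC1, −0.26 (SE 0.20), so that none of these 5 had a difference beyond 2 standard errors. *Eda2r*, the death receptor for an ectodysplasin isoform, was well above background on 6 of the 8 arrays, and its values are not read further. By role, the median averaged log2 fold change was 0.31 over 13 genes of cell death, 0.37 over 9 of the cell cycle, 0.30 over 3 feedback regulators, 0.14 over the 3 p53 family genes and −0.07 over 5 genes of stress and metabolism, against 0.04 for all probes.

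**Figure D2:**
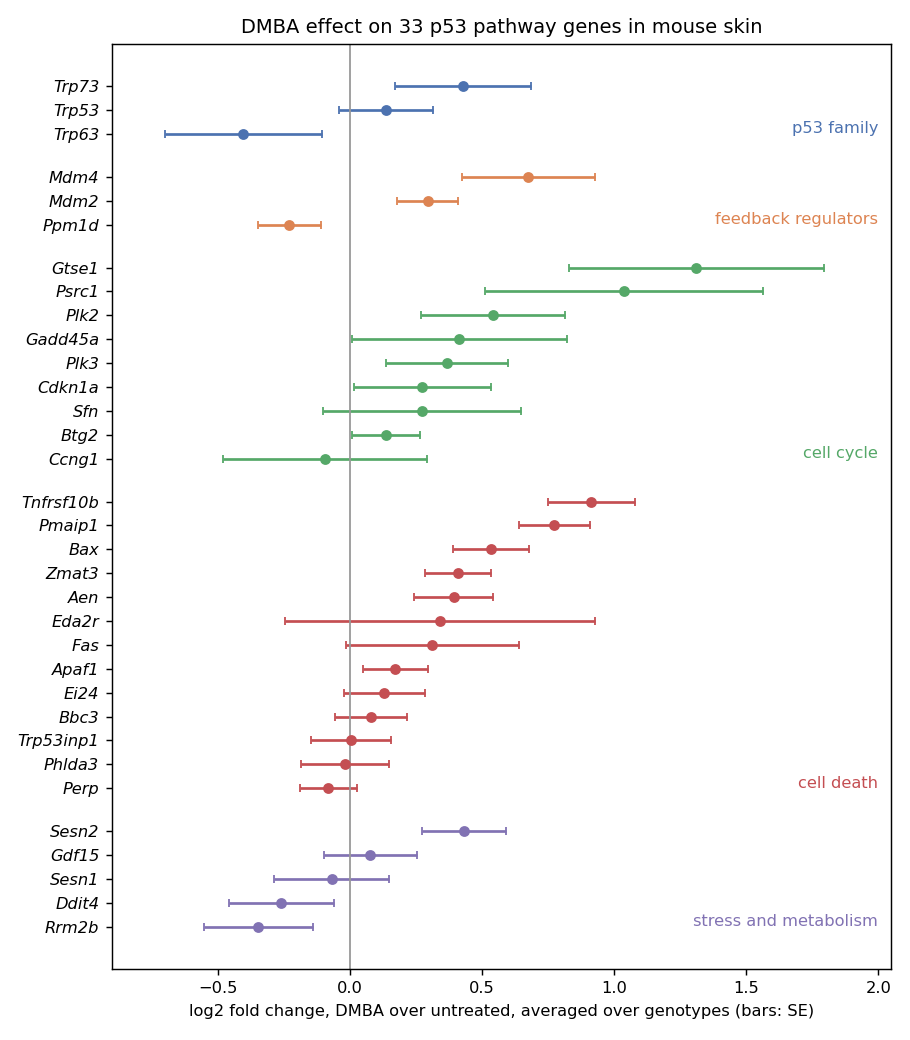
Log2 fold change of DMBA-treated over untreated skin, averaged over the genotypes, for the 33 members (points) with its standard error (bars), grouped by role and drawn on a linear axis of log2 units. Each member is shown by its brightest tested probe only. *Gtse1* stands farthest to the right at 1.31 with a wide bar, *Psrc1* follows at 1.04 with a wide bar too, then *Tnfrsf10b* and *Pmaip1* at 0.91 and 0.77 with narrower ones, and *Trp63* stands farthest to the left at −0.40.

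Within the genotypes as labelled, 0 of 33 members passed after DMBA in CD109+/+ skin, where 0.179% of all probes did (before adjustment, 5 members were under 0.05 by limma and 4 by the t-test of the methods, which left 0 after adjustment). In CD109-/- skin it was 0 of 33, where 0% of all probes passed (limma, before adjustment 8 members, with 3 by the t-test of the methods, which left 0 after adjustment). The smallest adjusted p in CD109+/+ skin was that of *Pmaip1*, at 0.213 for a difference of 0.85 (SE 0.19). *Tnfrsf10b* followed at 1.01 (SE 0.23, adjusted p = 0.221). *Bax* had 0.59 (SE 0.20, adjusted p = 0.38) in CD109+/+ and 0.48 (SE 0.20, adjusted p = 0.356) in CD109-/- skin.

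With the 2 arrays exchanged, 4 members rose and 0 fell in the averaged comparison, where 1.57% of all probes passed. They were *Gtse1* (SE 0.11, adjusted p = 0.0179), *Psrc1* (SE 0.11, adjusted p = 0.0289), *Tnfrsf10b* (SE 0.11, adjusted p = 0.0327) and *Pmaip1* (SE 0.10, adjusted p = 0.0381), with the log2 fold changes given above. This count became 0 without any 1 of the 2 DMBA arrays of CD109+/+ skin or of the 4 untreated arrays, 1 without DMBA-treated CD109-/- replicate 2 and 5 without its replicate 1. In CD109+/+ skin 4 members rose and 0 fell, where 3.5% of all probes passed. *Gtse1* rose by 2.07 (SE 0.15, adjusted p = 0.00966), *Psrc1* by 1.58 (SE 0.16, adjusted p = 0.0157), *Tnfrsf10b* by 1.16 (SE 0.16, adjusted p = 0.0262) and *Bax* by 0.73 (SE 0.12, adjusted p = 0.041) on the log2 scale. This count was 0 without either DMBA-treated CD109+/+ array or untreated CD109-/- replicate 1 as labelled, 1 without untreated CD109+/+ replicate 1, and 2 without replicate 2 of either untreated group. In CD109-/- skin 0 members passed, where 0.0215% of all probes did (limma, 11 members at an unadjusted p under 0.05), against 6 with the normexp background correction. There *Pmaip1* differed by 0.79 (SE 0.15, adjusted p = 0.117), *Tnfrsf10b* by 0.66 (SE 0.16, adjusted p = 0.145) and *Gtse1* by 0.56 (SE 0.15, adjusted p = 0.175).

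Whether the DMBA effect differed between the genotypes was tested by its interaction term. As labelled, 0 members passed, where 0% of all probes did (before adjustment, 5 members were under 0.05 by limma and 4 by the 2-way analysis of the methods, which left 0 after adjustment). With the arrays exchanged it was 0 as well, where 0.035% of all probes passed (limma, 4 members unadjusted), and 2 with the normexp background correction. The smallest adjusted p under the exchange was that of *Gtse1*, whose effect was lower in CD109-/- skin by 1.51 (SE 0.21, adjusted p = 0.071). For *Pmaip1* the difference was 0.04 (SE 0.21, adjusted p = 0.937). As labelled, the smallest was that of *Gdf15*, a secreted stress hormone, at −1.65 (SE 0.35, adjusted p = 0.265).

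Markers of some cell types moved with the treatment or with the *Cd109* signal and others did not. They are given beside these results because whole skin was measured. In bulk tissue, fewer cells of a type and less RNA per cell cannot be told apart. The mean log2 signal of 6 measured neutrophil markers of 7 was −0.67 to 1.31 after DMBA and −2.78 to −0.93 in untreated skin, with 4 to 6 of the 6 well above background on each array. The mean of 8 proliferation markers was 1.16 to 1.64 after DMBA. Without DMBA it was 0.06 and −0.23 where the *Cd109* signal was high and 1.56 and 1.67 where it was low, which are the arrays on which *Gtse1*, *Psrc1* and *Plk2* were low and high. The mean of 10 measured hair shaft keratins of 12 was −4.60 to −4.13 on the 4 arrays with a high *Cd109* signal and 1.14 to 5.92 on the 4 with a low one, with 6 or 7 of the 10 well above background on the former and 10 of 10 on the latter. The mean of 5 macrophage markers was 3.10 to 3.88 on the former and 1.70 to 2.88 on the latter. The mean of 5 skeletal muscle markers was 5.30 to 5.97 on the former and 2.64 to 4.65 on the latter, that of 5 adipocyte markers 3.18 to 4.02 and 1.64 to 2.58, and that of 5 basal epidermis markers 5.71 to 6.12 and 5.22 to 5.47. Markers of T cells, cornified epidermis and fibroblasts overlapped between the former and the latter arrays, and between the treatments. The mean of 5 T cell markers was −0.83 to 0.04 on the former and −0.64 to 0.15 on the latter. That of 4 measured cornified epidermis markers of 5 was 4.55 to 5.56 and 4.39 to 5.70, and that of 5 fibroblast markers 6.08 to 6.54 and 5.76 to 6.31. The part of all these cells in the members' values was not tested.

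The next comparison asked how CD109-/- skin differed from CD109+/+ skin after DMBA, and in it the labels go with the *Cd109* signal on all 4 arrays. As labelled, 0 of 33 members passed, where 0.0813% of all probes did (before adjustment, 7 members were under 0.05 by limma and 7 by the t-test of the methods, which left 0 after adjustment). Without the share of all probes under 0.05 before adjustment, these 7 are not read as a result about the members. The median log2 fold change was 0.19 for the members and 0.12 for all probes. *Mdm4*, the relative of Mdm2 that holds p53 inactive without degrading it, differed most. It was at −2.58 and −2.27 with CD109 and at −0.47 and 0.20 without it, with −2.33 to −1.50 on the untreated arrays, so both treated CD109-/- arrays stood above the other 6. Its log2 fold change was 2.29 (SE 0.36, adjusted p = 0.085), and its other probe gave 1.35 (SE 0.28, adjusted p = 0.0996). How many of all probes set a treated group apart from the other 6 arrays in this way is not given. Such a pattern, here and below, is therefore not read as particular to a member.

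After DMBA, *Trp53* was at −2.32 and −2.21 in CD109+/+ and at −1.48 and −1.29 in CD109-/- skin. Without DMBA it was at −2.23 and −1.64 with the label CD109+/+ and −2.15 and −1.83 with the label CD109-/-. Both treated CD109-/- arrays were the highest of the 8, and the log2 fold change was 0.88 (SE 0.25, adjusted p = 0.117). *Trp73*, which can activate many p53 targets, was at −2.12 and −1.86 against −1.07 and −1.13, for 0.88 (SE 0.36, adjusted p = 0.194), with −2.48 to −1.46 in untreated skin. Its 3 probes disagreed, with 0.47 (SE 0.24) for the second and −0.19 (SE 0.17) for the third.

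*Bbc3* encodes Puma, a BH3-only activator of Bax. After DMBA it was at 0.69 and 0.84 in CD109+/+ and at 1.46 and 1.38 in CD109-/- skin, against 0.76, 1.12, 0.98 and 1.20 without DMBA (log2 fold change between genotypes 0.66, SE 0.19, adjusted p = 0.122). *Btg2*, an antiproliferative regulator of mRNA decay, was at 0.57 and 0.93 against 1.28 and 1.24 and at 0.80 to 0.97 in untreated skin (0.51, SE 0.18, adjusted p = 0.16). The stress-responsive kinase gene *Plk3* was at 1.71 and 1.99 against 2.40 and 3.24 (0.97, SE 0.33, adjusted p = 0.145), and overlapped with an untreated array at 2.43. For these 3 genes the treated CD109-/- arrays stood above the treated CD109+/+ arrays.

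Other members were lower in treated CD109-/- skin. *Apaf1*, the scaffold of the apoptosome, was at −1.44 and −1.42 in treated CD109+/+ and at −1.98 and −2.05 in treated CD109-/- skin (log2 fold change −0.59, SE 0.17, adjusted p = 0.124). Its untreated arrays, at −2.04, −2.09, −1.56 and −1.90, covered the values of treated CD109-/- skin, and only the treated CD109+/+ arrays stood above the rest. *Gdf15* was at −2.56 and −2.64 against −3.55 and −3.74 (−1.05, SE 0.25, adjusted p = 0.104), and at −3.17, −3.83, −2.85 and −2.94 in untreated skin. *Ccng1*, cyclin G1, a regulator of Mdm2 through the phosphatase PP2A, was at 3.06 and 3.03 against 2.45 and 1.33 (−1.16, SE 0.55, adjusted p = 0.234). For *Tnfrsf10b*, *Pmaip1*, *Bax* and *Zmat3*, which were higher after DMBA, the genotypes overlapped after DMBA, with log2 fold changes of −0.15, −0.14, −0.07 and −0.13 (SE 0.18 to 0.23, adjusted p from 0.642 to 0.845).

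**Figure D3:**
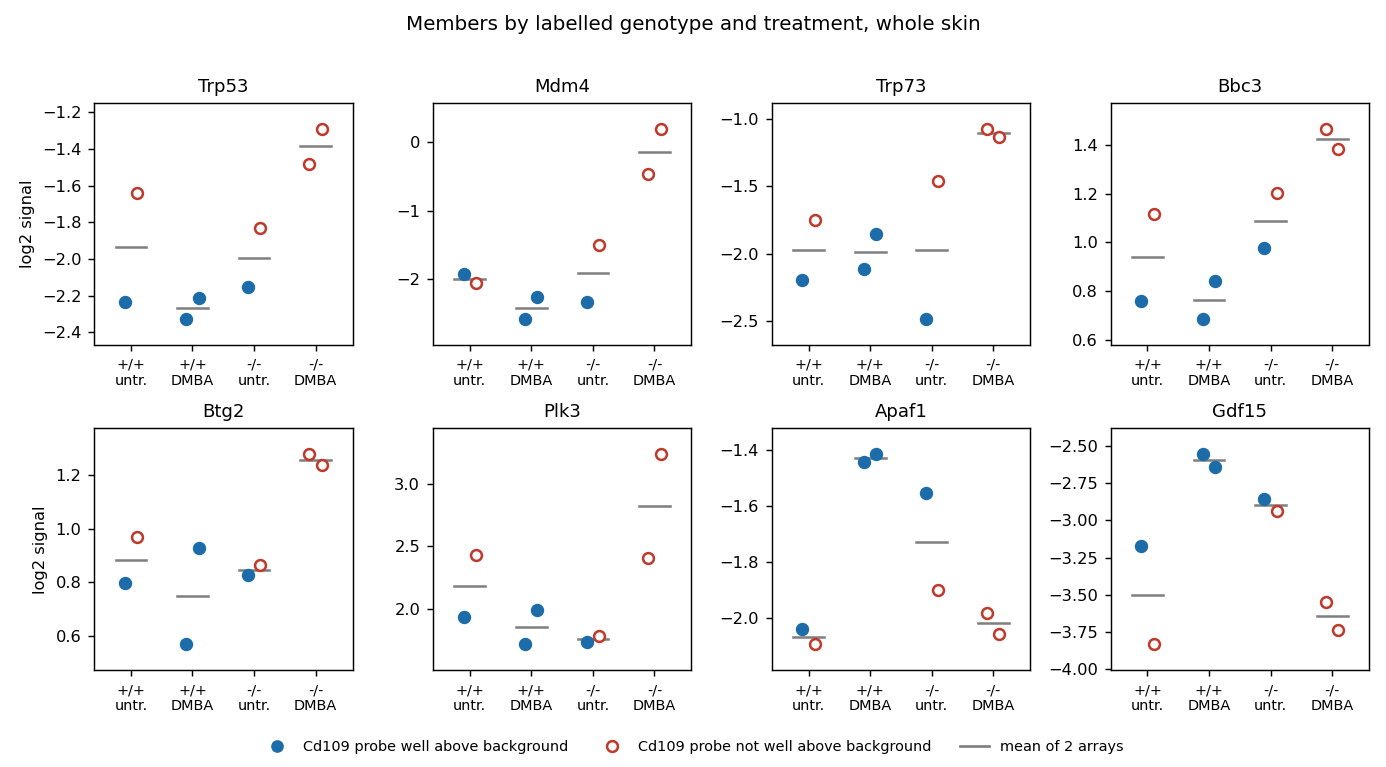
Log2 signal (relative to the 75th percentile of each array) of 8 members by labelled genotype and treatment, with 1 point per array, bars at the mean of 2 arrays, and filled points where the *Cd109* probe was well above background. For *Trp53*, *Mdm4*, *Trp73*, *Bbc3* and *Btg2* both DMBA-treated CD109-/- arrays lie above the other 6 arrays, and for *Apaf1* and *Gdf15* both DMBA-treated CD109+/+ arrays do.

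With the 2 untreated arrays exchanged, the log2 fold changes after DMBA stay as they are and only the error changes. Then 5 of 33 members (*Mdm4*, *Trp53*, *Trp73*, *Bbc3* and *Psrc1*) were higher in CD109-/- skin and 0 were lower, where 20.6% of all probes passed, so the members' share was below that of all probes. Their adjusted p was 0.0186, 0.0224, 0.0301, 0.0311 and 0.0375, and *Psrc1* was higher by 0.67 (SE 0.16). The count depended on single arrays. No member passed without either DMBA-treated CD109+/+ array or without DMBA-treated CD109-/- replicate 2. Fewer passed without either untreated array with a high *Cd109* signal, and more without DMBA-treated CD109-/- replicate 1. The share of all probes in these settings is not given, so the higher count is not read as a result about the members.

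In untreated skin the labels as deposited divide arrays that differ in *Cd109* signal. As labelled, 0 of 33 members passed, where 0.00542% of all probes did (before adjustment, 0 members were under 0.05 by limma and 1 by the t-test of the methods, which left 0 after adjustment), and the median was −0.04 against −0.02 for all probes. With the 2 arrays exchanged, *Psrc1* was higher in CD109-/- skin by 1.75 (SE 0.16, adjusted p = 0.00611), *Gtse1* by 1.60 (SE 0.15, adjusted p = 0.00667) and *Plk2* by 0.82 (SE 0.16, adjusted p = 0.0382) on the log2 scale, and 0 were lower, where 8.95% of all probes passed. These 3 of 33 members stood close to the share of all probes. The number was 0 without untreated CD109+/+ replicate 2 as labelled, 1 without either untreated array labelled CD109-/-, and 7 without either DMBA-treated CD109-/- array.

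Over all 8 arrays, 4 of the 33 members (*Trp53*, *Trp73*, *Bbc3* and *Gadd45a*) were higher on every array with a low *Cd109* signal than on any with a high one, where 14.7% of all probes were. The death receptor gene *Fas*, *Ccng1*, the sestrin gene *Sesn1* and *Phlda3* were lower on every such array, where 12.8% of all probes were. With 12.1% in either direction, the members stood close to the share of all probes. *Fas* was at 1.02, 0.42, 0.24 and 0.42 where the *Cd109* signal was low and at 1.48, 1.62, 1.18 and 1.44 where it was high. *Ccng1* was at 2.45, 1.33, 2.11 and 2.02 on the former and at 3.06, 3.03, 3.16 and 2.97 on the latter. The arrays with a low signal were thus lower and more spread, with the lowest *Ccng1* value on DMBA-treated CD109-/- replicate 2, the array with the highest hair shaft keratin mean. *Gadd45a*, a stress sensor in DNA repair, had its highest value there too, at 1.77 against −0.45 to 0.38 on the other 7.

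**Figure D4:**
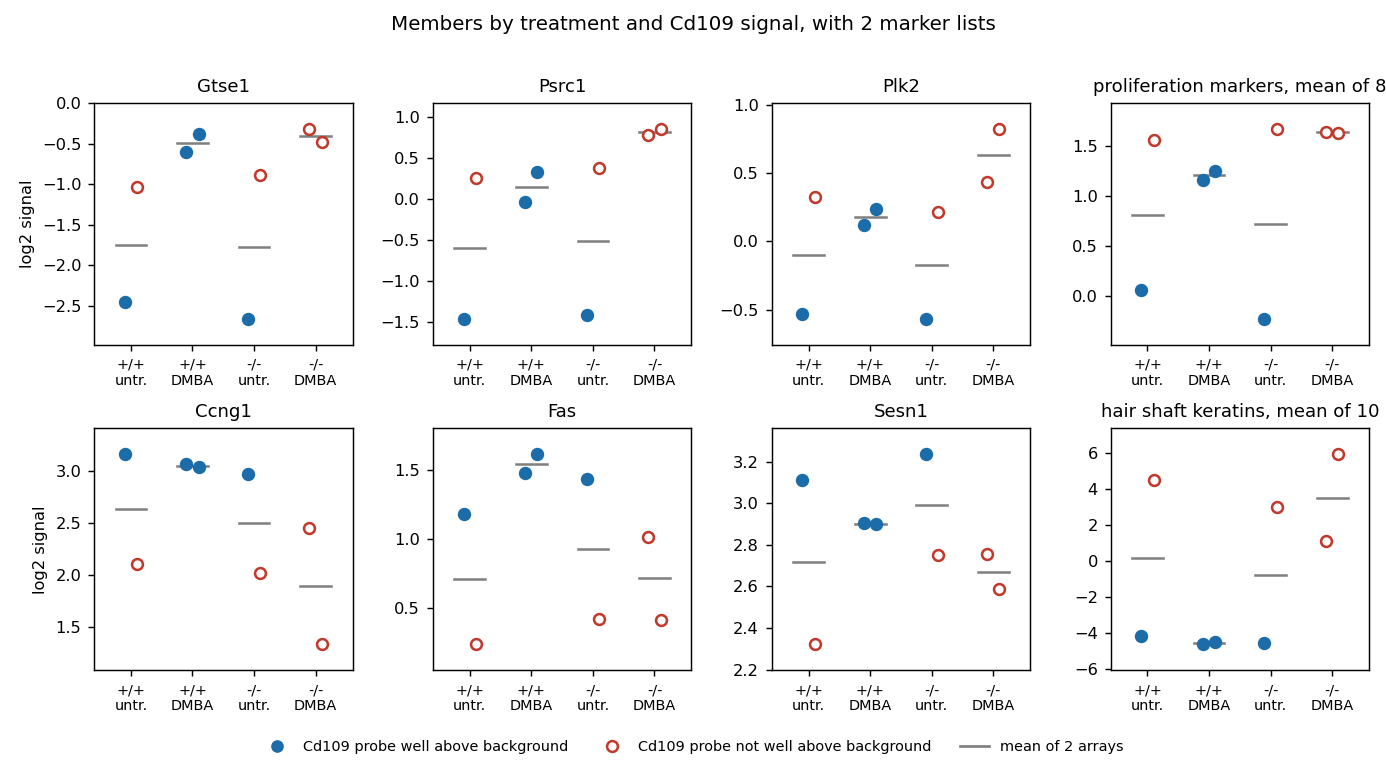
Log2 signal (relative to the 75th percentile of each array) of 6 members and mean log2 signal of 2 marker lists, by labelled genotype and treatment, with 1 point per array, bars at the mean of 2 arrays, and filled points where the *Cd109* probe was well above background. Untreated arrays with a filled point are the lowest for *Gtse1*, *Psrc1*, *Plk2* and the proliferation markers, and for *Ccng1* and *Fas* every filled point lies above every open one.

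The rest of the pathway was described by a list of 60 other genes, from upstream kinases to effectors, of which 59 were measured and tested. As labelled, 0 of the 59 passed in each of the 6 comparisons (limma, 12 at an unadjusted p under 0.05 in the averaged DMBA comparison), and their median averaged log2 fold change was 0.01 against 0.28 for the 33 members and 0.04 for all probes. On all 4 DMBA arrays, 8 of the 59 were higher than on any untreated array, where 3.78% of all probes were. On the same arrays 3 were lower, where 2.38% of all probes were. The 8 included the checkpoint kinase gene *Chek2*, *Rprm*, *Polk* and *Fdxr*. *Rprm* (Reprimo), a p53-induced inhibitor of the G2 to M transition, was at −2.68, −2.62, −2.72 and −3.36 after DMBA and at −4.33, −4.82, −4.81 and −5.09 without it. Its treatments stood well apart, and it rose by 1.92 (SE 0.19, adjusted p = 0.0252) with the 2 arrays exchanged. Under the exchange, 6 of the 59 rose and 1 fell in the averaged comparison, where 1.57% of all probes passed. Besides *Rprm* they included *Rrm2*, a subunit of ribonucleotide reductase (0.90, SE 0.12, adjusted p = 0.0375), *Polk*, a translesion polymerase (0.85, SE 0.12, adjusted p = 0.0395), and *Igfbp3*, which binds insulin-like growth factors and fell by 1.50 (SE 0.20, adjusted p = 0.0384).

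Under the same exchange, the genotypes after DMBA differed for 17 of the 59, 8 of which were higher and 9 lower without CD109, where 20.6% of all probes passed. In untreated skin 13 were higher and 5 lower, where 8.95% of all probes passed. After DMBA they included *Igfbp3* at −1.89 (SE 0.29, adjusted p = 0.0214) and the cyclin gene *Ccnd2* at 1.02 (SE 0.17, adjusted p = 0.0232). In untreated skin the 4 with the smallest p were genes of the cell cycle engine, with *Ccnb2* at 1.51 (SE 0.12, adjusted p = 0.00534), *Cdk1* at 1.50 (SE 0.14, adjusted p = 0.0066), *Ccnd1* at 1.43 (SE 0.15, adjusted p = 0.00848) and *Ccnb1* at 1.51 (SE 0.16, adjusted p = 0.00897). The proliferation markers were higher on these same arrays, as given above. That list itself includes *Cdk1* and *Ccnb1*, so its mean is no separate evidence for these genes. In CD109+/+ skin 7 of the 59 rose and 1 fell after DMBA under the exchange, where 3.5% of all probes passed, in CD109-/- skin 0 passed (limma, 15 at an unadjusted p under 0.05), and 0 passed for the interaction (18 unadjusted).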

How the data were processed

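Whole-skin RNA of 4 groups of 2 was labelled with 1 dye, hybridized to Agilent mouse arrays and read by the authors with Agilent Feature Extraction 11.5.1.1. The deposited intensity is linear, background-subtracted and not normalized between arrays, and the value table deposited by the authors holds the same intensity times 1 constant per array. Control spots and 907 spots marked as outliers were left out and the spots of a probe averaged, which kept 55458 probes. The log2 of each array's 75th percentile was subtracted. Accessions named 94.0% of 29796 RefSeq probes. A probe was tested where 1 or more groups had it well above background on each of their arrays, with limma 3.58.1 in R 4.3.3 (4 group means, 8 arrays, Benjamini-Hochberg over all 36918 probes, threshold 0.05), which was tested on simulated data. Alternatives are listed in the closing section. The members, gene lists and tests were chosen with earlier results of these data known. Each member may be named. Those with values per array are 7 chosen genes, the 6 smallest p of 3 comparisons, and others chosen after their values were seen. Some genes of the pathway list are not reported here.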

Additional observations from a re-analysis of the deposited data

How the results depend on the processing

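As labelled, 0 members passed in all 6 comparisons, and the count stayed 0 with quantile normalization, median centring, the normexp background (offset 50), no filter, a filter on all arrays, the deposited value table, the mean of a gene's probes, a variance trend, leaving out each array, and without the 2 arrays in doubt. It was also 0 with only the arrays compared, run for the 4 comparisons of 2 groups, and with treatment alone, run for the averaged one. With the replicate number as a block it was 1 for the genotypes after DMBA and 0 elsewhere. The labels do not say whether the replicate numbers pair animals. Correlations between same-numbered arrays were −0.08 to 0.73. They cannot settle it, since both untreated replicates 1 had a high *Cd109* signal and both untreated replicates 2 a low one. The methods' tests unadjusted gave 8 averaged over the genotypes, 4 in CD109+/+ and 3 in CD109-/- skin after DMBA, 7 between genotypes after DMBA, 1 in untreated skin and 4 for the interaction, and 0 after adjustment. Exchanging the 2 arrays gave 4, 4, 0, 5, 3 and 0 in that order. Under the exchange, leaving out each array gave 0 to 5 averaged, 0 to 5 in CD109+/+ skin, 0 to 14 between genotypes after DMBA and 0 to 7 in untreated skin, and the normexp background gave 6 in CD109-/- skin after DMBA, 11 between genotypes after DMBA, 6 in untreated skin and 2 for the interaction. Where an arm kept 1 array, it was assumed to vary like the other groups. For the settings added to the exchange, the share of all probes is not given. Their counts are therefore not read as a result about the members. Treatment alone and the settings added to the exchange were chosen after seeing the data. Of 484 alternatives for 22 log2 fold changes of members, 0 turned the sign. The causes were not tested. With 2 arrays per group, the number of arrays limits the precision.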
